A study of Mus musculus with 116 samples.

Results

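The genes examined here are 10 genes of glucose, lactate and pyruvate metabolism: the glucose transporters Slc2a1 and Slc2a3, the hexokinases Hk1 and Hk2, the phosphofructokinases Pfkl and Pfkp, the lactate dehydrogenase subunit Ldhb, the pyruvate dehydrogenase subunit Pdha1, its kinase Pdk1, and the monocarboxylate transporter Slc16a1. They were picked by name, as rows whose gene symbol equals a listed symbol. Each of the 10 was found once in every table, among 24028 symbols present in all 4 tables. The series studied RNA polymerase II binding during the activation of the mouse embryonic genome, and 7 of its 116 samples are the RNA libraries used here.

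All samples were wild-type, from 8-week-old females given PMSG and hCG, and the fertilised embryos came from C57BL/6N females mated with PWK males. The total RNA libraries were MII oocytes (mature eggs, 13 h after hCG), PN5 zygotes (late pronuclear stage, 30 h), early 2-cell embryos (36 h), and 2 late 2-cell groups, with 1 library of about 100 pooled oocytes or embryos each. Both late 2-cell groups began as zygotes taken at 23 h and spent 14 h in KSOM medium with 0.1% DMSO (control) or 60 uM DRB (labelled mTBE). DRB is a kinase inhibitor that blocks transcription elongation by RNA polymerase II. Both were then released into culture for 12 h. The last group was the inner cell mass (ICM) of blastocysts at 98 h, with 2 libraries made by Smart-seq2, which copies polyadenylated RNA. How the ICM was separated from the trophectoderm, the outer layer of the blastocyst, is not given in the sources used here.

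As background, the mouse egg and cleavage embryo live mainly on pyruvate and lactate, which lactate dehydrogenase interconverts. Glucose uptake and glycolysis gain importance as the embryo forms a blastocyst. Glucose enters through SLC2A transporters, is trapped by hexokinase and is committed to glycolysis by phosphofructokinase. Pyruvate dehydrogenase then feeds pyruvate carbon into the mitochondrial TCA cycle, unless a PDK kinase phosphorylates and inactivates it.

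Values are the authors' FPKM, fragments per kilobase of transcript and per 1000000 mapped fragments, so levels are per length. PN5 and both late 2-cell libraries share 1 table, the ICM libraries share another, and MII and early 2-cell have 1 table each. Levels set across tables were normalized separately. Between 9396 and 13022 genes were at 1 FPKM or more per library. Oocyte markers (10 of 10 at 1 FPKM or more in every total RNA library) summed to 940 to 4274 FPKM there and to 13.5 and 36.6 in the ICM libraries. The 8 markers of the 2-cell stage summed to 407 FPKM in the late 2-cell control and 190 in mTBE. In the ICM libraries all 7 epiblast markers were at 1 FPKM or more (sums of 524 and 383), but so were all 7 trophectoderm markers. All 7 epiblast markers also reached 1 FPKM in both late 2-cell libraries, and they summed to 151 to 289 FPKM in the total RNA libraries. Most of these sums was Pou5f1, at 147 to 252 FPKM there. Nanog was at 1.84 FPKM in the late 2-cell control and at 105 and 133 in ICM, and Tdgf1 at 1.09, and 107 and 61.0. Sox2, Fgf4, Klf2 and Esrrb were lower in both ICM libraries than in the late 2-cell control. The 5 primitive endoderm markers summed to 53.3 FPKM in the late 2-cell control, 47.0 in mTBE, and 34.5 and 38.2 in ICM. Gata4 made up most of the late 2-cell sums, at 46.1 and 30.2 FPKM, and was at 2.51 and 0.581 in ICM. Gata6 was at 2.54 FPKM in the late 2-cell control and at 24.5 and 32.1 in ICM. Pdgfra, Sox17 and Sox7 were at 5.03 FPKM or less in both the late 2-cell control and ICM. Of the 7 trophectoderm markers, 6 also reached 1 FPKM in each late 2-cell library. The trophectoderm sums were 1803 and 1541 FPKM in ICM, against 22.2 to 70.6 in the total RNA libraries. The keratin gene Krt18 alone was at 1116 and 991 in ICM. Both ICM libraries therefore also carried transcripts of the outer layer, and the part of these in the ICM values below was not tested. Of 14 cumulus and granulosa markers, 2 to 8 were at 1 FPKM or more, and Fshr, Lhcgr, Ptx3 and Inhba stayed below 1 FPKM in all 7 libraries. Most of that list's sum of 35.9 to 139 FPKM was Serpine2, at 30.6 to 124 FPKM, Cyp19a1 reached 12.2 in PN5, and Amhr2 was at 16.7 in the late 2-cell control and at 6.64 and 9.13 in ICM. The part of these transcripts in the results was not tested.

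A difference between 2 libraries is given on the log2(FPKM + 1) scale, where 1 is about 2-fold and folds of low genes are understated. A gene was measured in a comparison when it reached 1 FPKM on either side, and was called higher or lower when the difference reached 1 in size (the size rule). For ICM both sides of this rule use the 2 libraries together. Outside ICM each group has 1 library, so no difference there has a replicate check and no p-value is given. Between the ICM libraries, which are the only replicates, 8 of the 10 genes were measured, 1 was higher (2.31% of all genes) and 1 lower (2.79%).

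Of the 2 glucose transporter genes, Slc2a1 was present from the egg on, and Slc2a3 was above it in the ICM alone. Slc2a1, the GLUT1 transporter found in most cells, was at 29.5 FPKM in MII, 27.1 in PN5, 21.5 in early 2-cell, 25.8 in the late 2-cell control, 21.4 in mTBE, and 33.0 and 28.8 in ICM (30.9 ± 3.00, SD, n = 2). No library stood out, and the highest and lowest were less than 2-fold apart. In rank, Slc2a1 lay between percentile 69.9 and 78.5 of the genes at 1 FPKM or more in each library. Slc2a3, the high-affinity GLUT3 transporter, was at 0.171 FPKM in MII, 0.0982 in PN5, listed at 0 in early 2-cell, 16.0 in the late 2-cell control, 7.67 in mTBE, and 65.9 and 66.5 in ICM (66.2 ± 0.452, SD, n = 2). The gene was thus below 1 FPKM in all 3 libraries before the late 2-cell stage, and the ICM libraries were the highest. Within the shared table the control was 3.95 above PN5 and mTBE 2.98 above PN5. The ICM stood 1.99 above the late 2-cell control. RefSeq gene spans of GRCm38 overlap Slc2a3 (the pseudogene Gm4482), Slc2a1 (the lncRNA genes Gm12867 and Gm52706) and Hk1 (Hk1os). The spans were compared from start to end, without exons or strand, so whether reads of such pairs are shared was not tested. In bulk samples fewer cells of a type and less RNA per cell cannot be told apart.

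A ratio of 2 genes within a library does not move with the scale of its table. The ratio of Slc2a1 to Slc2a3 was 1.62 in the late 2-cell control, 2.78 in mTBE, and 0.501 and 0.433 in the ICM libraries. Earlier stages gave no ratio because Slc2a3 was below 1 FPKM. Of the summed FPKM of Slc2a1 to Slc2a4, Slc2a3 made up at most 0.6% up to the early 2-cell stage, 36.5% in the late 2-cell control, 24.2% in mTBE, and 66.1% and 69.5% in ICM. The other 2 members of that sum were low: Slc2a2, the liver transporter, stayed below 1 FPKM in all 7 libraries, and Slc2a4, the insulin-responsive transporter, reached 2.01 and 2.71 FPKM in the late 2-cell libraries. Of the other transporters, Slc2a8 was at 0.295 FPKM in MII, 9.48 in the late 2-cell control and 5.09 in mTBE, and at 23.4 and 21.8 in ICM. Slc2a12 went the other way, from 6.90 FPKM in MII and 8.23 in the control to 0.674 and 0.486 in ICM. The genes whose profiles over the 7 libraries lay nearest to Slc2a3, by the mean absolute difference of centred log2(FPKM + 1) values, were Eif1a (0.15), Nop16 (0.20) and F11r (0.22). For comparison, the nearest genes to Slc2a1 were Nrbf2, Itfg2 and the glucose-6-phosphatase gene G6pc3, at 0.13 to 0.14.

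**Figure D1:**
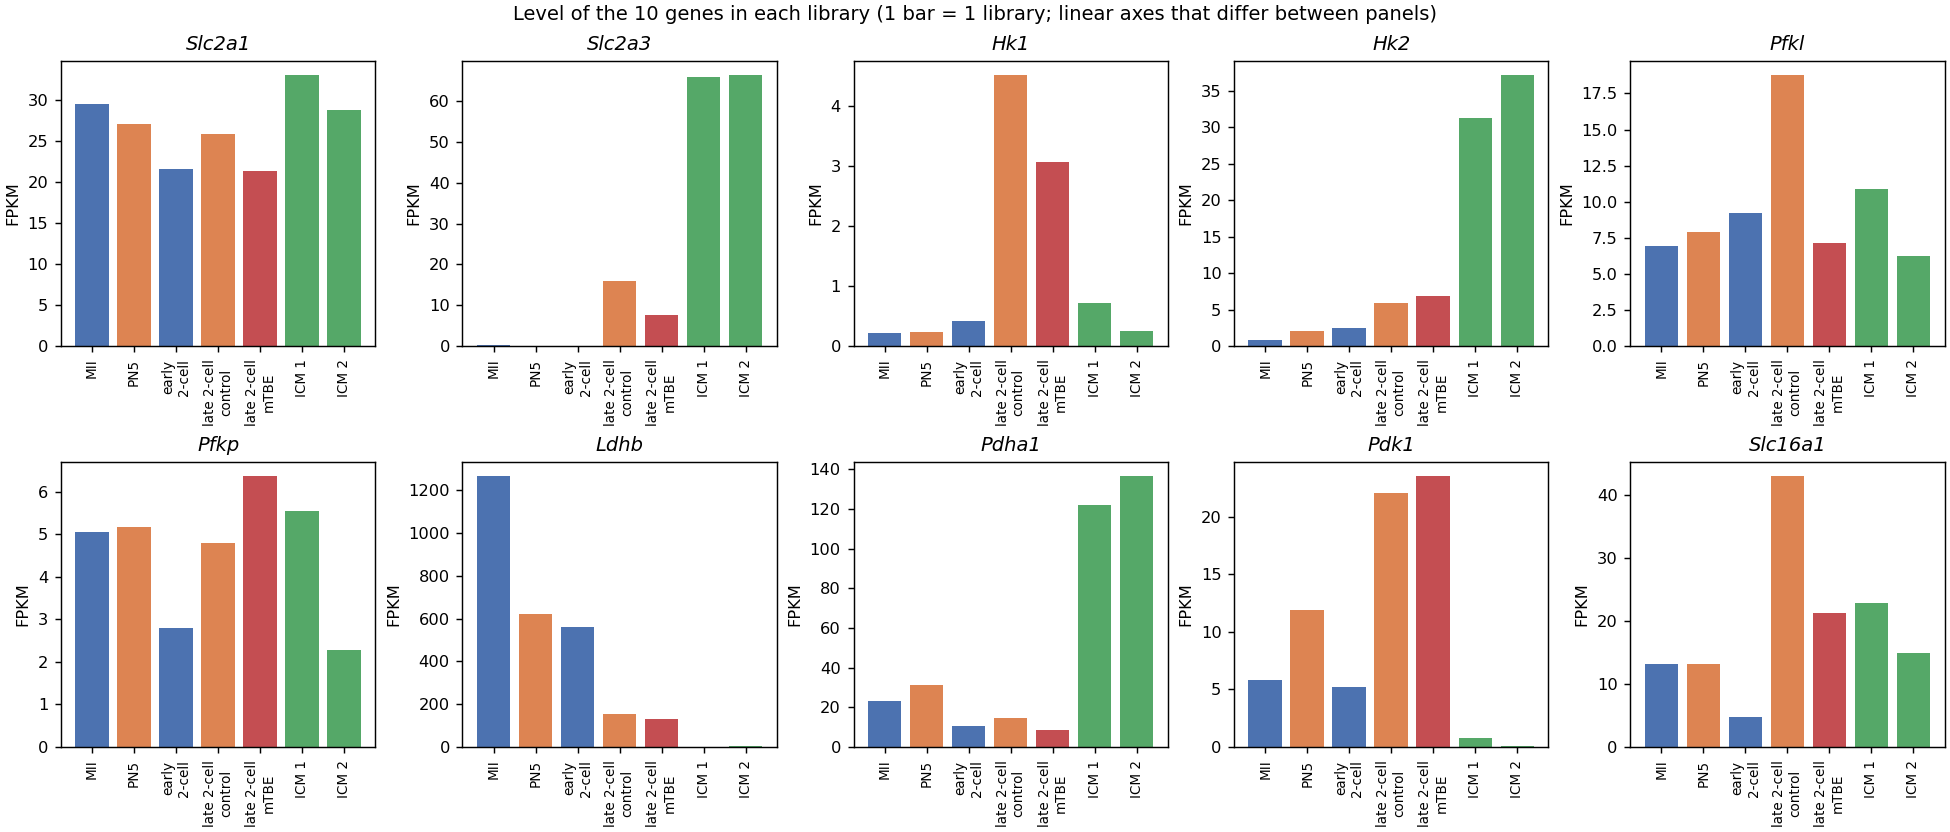
FPKM (y axis, linear and different in each panel) of the 10 genes in the 7 libraries (x axis), 1 bar per library. Blue bars are libraries with a table of their own, orange and red bars the table shared by PN5 and late 2-cell (red, mTBE), and green bars the ICM table. Slc2a3, Hk2 and Pdha1 are highest in ICM, Ldhb is highest in MII at 1267 FPKM, and Hk1, Pfkl, Pdk1 and Slc16a1 are highest in a late 2-cell library.

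Hk1 and Hk2 were both below 1 FPKM in the egg, and Hk2 alone was high in the ICM. Hk1, the hexokinase of most adult tissues, was at 0.209 FPKM in MII, 0.232 in PN5, 0.421 in early 2-cell, 4.53 in the late 2-cell control, 3.08 in mTBE, and 0.710 and 0.254 in ICM (0.482 ± 0.323, SD, n = 2). It passed 1 FPKM in the late 2-cell libraries and in no other. Since Hk1 is near 0 in ICM and those libraries differ in protocol from the late 2-cell libraries, the difference of -1.92 between them does not show absence in ICM. Hk2, the inducible hexokinase of muscle and growing cells, was at 0.810 FPKM in MII, 2.12 in PN5, 2.51 in early 2-cell, 5.89 in the late 2-cell control, 6.86 in mTBE, and 31.3 and 37.3 in ICM (34.3 ± 4.24, SD, n = 2). Its order followed developmental time, with both late 2-cell libraries close to each other and both ICM libraries far above. The ICM mean was 5.81 times the late 2-cell control, a difference of 2.35. Hk2 moved from percentile 12.7 of PN5 genes to 39.4 in the control and to 75.8 and 79.3 in ICM.

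The paralogs Hk3 and Hkdc1 were low in every library. Hk3 stayed below 1 FPKM throughout, and Hkdc1 reached 1.13 in ICM replicate 2. Of the summed FPKM of Hk1, Hk2, Hk3 and Hkdc1, Hk2 made up 52.7% in the late 2-cell control and 95.5% and 96.4% in ICM, while Hk1 made up 40.5% in the control and 2.2% and 0.7% in ICM. The sum of these 4 genes was 1.02 FPKM in MII, 11.2 in the control, and 32.7 and 38.6 in ICM. The nearest profiles to Hk2 were the cyclin gene Ccnd3 (0.14), Tusc2 and the mitochondrial carrier gene Slc25a10 (0.18 each). Those nearest to Hk1 were Cecr5, Brpf1 and St3gal2, at 0.12 to 0.16.

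The promoter of Hk2 is shown because Hk2 was higher at each later stage, and it can be set beside those of Slc16a1 and Ldhb given with those genes. The stretches are the 250 bases before the RefSeq start, in build GRCm38.p6, in the direction of the gene. Capitals mark, on either strand, the GC box GGGCGG, the box CCAAT and ACGTG, the core of sites for hypoxia-inducible factors. Hk2 lies on the minus strand at chr6:82774455-82774704 and holds 3 GC boxes, 2 CCAAT boxes and 2 ACGTG cores.
Hk2: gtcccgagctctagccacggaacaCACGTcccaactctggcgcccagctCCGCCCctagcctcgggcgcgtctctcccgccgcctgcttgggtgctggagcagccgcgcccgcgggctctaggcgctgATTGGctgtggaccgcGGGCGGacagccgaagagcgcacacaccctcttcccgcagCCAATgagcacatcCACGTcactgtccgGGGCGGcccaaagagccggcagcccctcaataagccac
RefSeq windows from 250 bases before to 50 after the start were on hand for 9 of the 10 genes, 11 windows in all, not for Slc2a3. The GC box was in 6 of the 11 windows and in 35.7% of 32851 mouse windows of that length. CCAAT was in 4 of the 11 (37.4% of all windows), and ACGTG in 4 of the 11 (19.6%), namely of Slc2a1, Hk1, Hk2 and Slc16a1. The cyclic AMP element TGACGTCA was in none of the 9 and in 1.79% of all windows. A match is a string of letters and not evidence of binding.

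Phosphofructokinase was carried by several genes at moderate level. Pfkl, the liver-type subunit, was at 6.95 FPKM in MII, 7.90 in PN5, 9.24 in early 2-cell, 18.8 in the late 2-cell control, 7.10 in mTBE, and 10.9 and 6.21 in ICM (8.55 ± 3.31, SD, n = 2). The control library stood above the other 6, and mTBE was at the level of PN5. Pfkl was the single gene of the 10 that was lower in mTBE than in control by the size rule, at -1.29. Pfkp, the platelet-type subunit, was at 5.06 FPKM in MII, 5.16 in PN5, 2.79 in early 2-cell, 4.79 in the late 2-cell control, 6.37 in mTBE, and 5.55 and 2.27 in ICM (3.91 ± 2.32, SD, n = 2). ICM replicate 2 was 2.44-fold below replicate 1, so no order of stages can be read for this gene. In GRCm38 the span of Pitrm1 overlaps that of Pfkp, and the kind of counting is not stated. Whether reads of the pair are shared was not tested. The muscle-type gene Pfkm was at 9.36 FPKM in MII and 12.7 in PN5, 4.96 in the control, 5.53 in mTBE, and 1.41 and 0.946 in ICM.

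Within a library, the ratio of Pfkl to Pfkp was 1.38 in MII, 1.53 in PN5, 3.31 in early 2-cell, 3.93 in the late 2-cell control, 1.12 in mTBE, and 1.96 and 2.73 in ICM. It was highest in the control and lowest in mTBE, which came from the same table. Of the 3 phosphofructokinase genes together, Pfkl made up 32.5% of the FPKM in MII, 65.9% in the control, 37.4% in mTBE, and 61.0% and 65.9% in ICM. The nearest profiles to Pfkl were Senp3 (0.18), Safb (0.20) and the replication gene Cdc45 (0.21), and those to Pfkp were Vwa8, Nedd4 and Papd4 (0.09 to 0.16).

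Ldhb was by far the most abundant of the 10 genes in the egg, and it was lower in the late 2-cell and ICM libraries than in the earlier ones. Ldhb encodes the H subunit of lactate dehydrogenase, the form of tissues that use lactate. It was at 1267 FPKM in MII, 621 in PN5, 562 in early 2-cell, 152 in the late 2-cell control, 130 in mTBE, and 0.212 and 3.29 in ICM (1.75 ± 2.17, SD, n = 2). In MII it ranked 5 of 10128 genes at 1 FPKM or more. It ranked 35 in PN5, 22 in early 2-cell, 306 in the late 2-cell control and 439 in mTBE. No order of PN5 and early 2-cell can be read, since their difference of -0.14 became 0.72 with the median ratio set to 0. The comparison within the shared table put the control 4.08-fold below PN5 (a difference of -2.02), and mTBE 4.78-fold below PN5 (-2.25). Control and mTBE lay only -0.23 apart.

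The ICM values of Ldhb were below those of every total RNA library by -6.07 against the late 2-cell control, but their 2 replicates differed by 1.82 in the same direction as their oocyte marker sums of 13.5 and 36.6 FPKM. The part of egg-derived RNA in that replicate difference was not tested. A named pseudogene, Ldhb-ps, exists in RefSeq, so reads of Ldhb may be shared with it. Ldha, which encodes the M subunit favoured by glycolytic tissues, was at 0.521 FPKM in MII, 1.01 in PN5, 2.03 in early 2-cell, 16.8 in the late 2-cell control, 11.3 in mTBE, and 4.78 and 1.48 in ICM. The ratio of Ldhb to Ldha was thus 615 in PN5, 277 in early 2-cell, 9.10 in the late 2-cell control, 11.5 in mTBE and 2.22 in ICM replicate 2. In ICM replicate 1 Ldhb was below 1 FPKM and under Ldha, so that Ldhb made up 4.0% of the lactate dehydrogenase sum there and 67.4% in replicate 2. Ldhc, the subunit of the male germ line, reached 6.38 FPKM in the control and stayed below 1 FPKM in ICM. The 3 dehydrogenase genes summed to 1269 FPKM in MII and 175 in the control, but to only 5.36 and 4.88 in ICM. The ICM libraries were made with another protocol, so this low sum does not show that the ICM lacks lactate dehydrogenase. The nearest profiles to Ldhb were those of Ccno (0.36), Oas1d (0.37) and the maternal-effect gene Zar1 (0.43), less close than for the other 9 genes.

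The promoter of Ldhb, the gene that ran opposite to Hk2, lies on the minus strand at chr6:142507958-142508207 and holds 1 CCAAT box, with no GC box or ACGTG core in the 250 bases.
Ldhb: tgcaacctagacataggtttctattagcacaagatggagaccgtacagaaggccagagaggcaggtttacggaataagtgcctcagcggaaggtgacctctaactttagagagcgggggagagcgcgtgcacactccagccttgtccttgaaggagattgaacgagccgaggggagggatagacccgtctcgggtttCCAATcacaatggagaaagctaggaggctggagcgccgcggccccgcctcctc

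Slc16a1 was highest in the late 2-cell control. It encodes MCT1, which carries lactate, pyruvate and ketone bodies across the plasma membrane together with a proton. Slc16a1 was at 13.3 FPKM in both MII and PN5, 4.72 in early 2-cell, 43.1 in the late 2-cell control, 21.2 in mTBE, and 22.9 and 14.9 in ICM (18.9 ± 5.65, SD, n = 2). The control stood 3.25-fold above PN5 and 2.03-fold above mTBE, the latter a difference of -0.99, just inside the size rule. Slc2a3 was also just inside it, at -0.97. In rank Slc16a1 was at percentile 52.5 in PN5, 86.3 in the control, 77.3 in mTBE, and 69.7 and 62.6 in ICM. Its relative Slc16a3, the lactate exporter MCT4, was at 0.366 FPKM in PN5, 7.55 in the control and 6.25 in mTBE, and below 1 FPKM in ICM. Slc16a7 and Slc16a8 stayed below 1 FPKM in all 7 libraries. Bsg, which encodes basigin, the chaperone that brings MCT1 to the membrane, was at 24.4 to 43.7 FPKM in the total RNA libraries and at 379 and 413 in ICM. The nearest profiles to Slc16a1 were those of Baz1a (0.16), Chuk (0.17) and C230052I12Rik (0.18).

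The promoter of Slc16a1 is shown for its E-box CACGTG, which was in 7.15% of all windows and in none of the other 8 genes with a window. The E-box contains the core ACGTG on both strands. The stretch lies on the plus strand at chr3:104638414-104638663 and also holds 1 GC box.
Slc16a1: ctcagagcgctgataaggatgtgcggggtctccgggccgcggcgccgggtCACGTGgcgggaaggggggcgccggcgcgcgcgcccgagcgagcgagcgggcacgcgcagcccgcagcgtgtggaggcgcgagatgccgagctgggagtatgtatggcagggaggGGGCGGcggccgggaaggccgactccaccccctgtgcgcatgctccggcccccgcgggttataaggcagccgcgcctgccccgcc

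**Figure D2:**
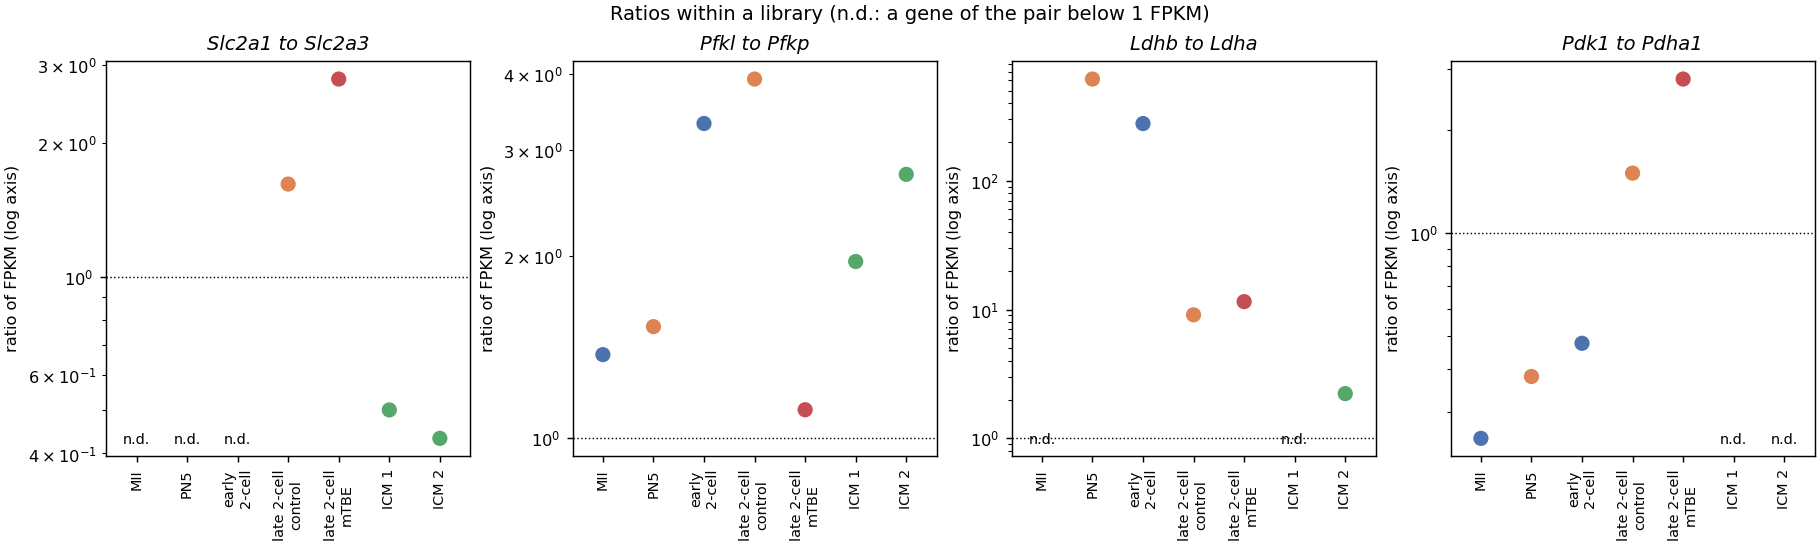
Ratio of the FPKM of 2 genes within each library (y axis, log scale) for the 7 libraries (x axis), 1 point per library, coloured by table as above. Points are missing (n.d.) where a gene of the pair was below 1 FPKM. The ratio of Slc2a1 to Slc2a3 lies above 1 in both late 2-cell libraries and below 1 in both ICM libraries, and the ratio of Ldhb to Ldha is 615 in PN5, against 9.10 in the control of the late 2-cell stage.

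Pyruvate dehydrogenase and its kinase were opposite in the late 2-cell and ICM libraries. Pdha1, the catalytic E1 alpha subunit and the target of the PDK kinases, was at 23.1 FPKM in MII, 31.3 in PN5, 10.9 in early 2-cell, 14.8 in the late 2-cell control, 8.38 in mTBE, and 122 and 137 in ICM (129 ± 10.5, SD, n = 2). Both ICM libraries were far above all others, and mTBE was the lowest. The control was -1.03 below PN5, which became -0.91 with the median ratio of the 2 libraries set to 0, and mTBE was -1.78 below PN5. In GRCm38 the span of Map3k15 overlaps that of Pdha1, and whether reads of this pair are shared was not tested either. Pdk1 was at 5.81 FPKM in MII, 11.9 in PN5, 5.18 in early 2-cell, 22.1 in the late 2-cell control, 23.6 in mTBE, and 0.752 and 0.0992 in ICM (0.425 ± 0.461, SD, n = 2). The late 2-cell libraries were the highest and agreed to within 0.09, while both ICM libraries were below 1 FPKM. The ratio of Pdk1 to Pdha1 was 0.252 in MII, 0.382 in PN5, 0.477 in early 2-cell, 1.50 in the late 2-cell control and 2.81 in mTBE.

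The low ICM value of Pdk1 came from a table made with another protocol. Of 3981 genes at 10 FPKM or more in PN5 and both late 2-cell libraries, 598 (15.0%) were below 1 FPKM in both ICM libraries. Of the 10 genes, only Slc2a1, Ldhb, Pdk1 and Slc16a1 were at 10 FPKM or more in those total RNA libraries. Pdk1 alone of these was below 1 FPKM in both ICM libraries. Pdk3, a paralog of Pdk1, and Pdp1, a phosphatase gene described below, were also among the 598. Pdk3 was at 33.7 FPKM in the control, listed at 0 in ICM replicate 1 and at 0.344 in replicate 2. The other kinase genes were low: Pdk2 peaked at 2.45 FPKM in the control and Pdk4 at 1.98 in ICM replicate 1. The 4 kinase genes summed to 17.9 FPKM in MII, 58.6 in the control, 64.5 in mTBE, and 4.49 and 2.92 in ICM. Pdha2, the testis form of the E1 alpha subunit, reached at most 1.04 FPKM. The nearest profiles to Pdha1 were those of the translation factor gene Eif3h (0.14), the co-chaperone gene Stip1 and the chaperonin gene Cct2 (0.16 each). Those nearest to Pdk1 were Nab1, Zranb1 and Amer1, at 0.11 to 0.12.

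Other genes around pyruvate dehydrogenase differed among themselves. Pdhb, the E1 beta subunit, was at 15.9 FPKM in PN5, 31.8 in the late 2-cell control, 22.9 in mTBE, and 228 and 217 in ICM, high in ICM like Pdha1. Dld, the E3 subunit, was at 72.5 FPKM in PN5, 12.1 in the control, and 63.0 and 68.5 in ICM. Pdhx, the E3-binding protein, was at 83.8 FPKM in PN5, 23.3 in the control, and 25.0 and 23.4 in ICM. Me1, the cytosolic malic enzyme, was at 152 FPKM in PN5, 75.3 in the control, 107 in mTBE, and 26.1 and 25.4 in ICM. Pdp2, a phosphatase that reactivates pyruvate dehydrogenase, was at 2.31 FPKM in PN5, 84.6 in the control, 43.6 in mTBE, and 25.5 and 27.8 in ICM. Pdp1, grouped with it, was at 16.6 FPKM in PN5, 11.1 in the control, and 0.119 and 0.157 in ICM. Pdpr, of the same group, was at 20.6 FPKM in PN5, 48.5 in the control, and 1.45 and 0.869 in ICM. Pdp1, Pdp2 and Pdpr were chosen after their values were seen.

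**Figure D3:**
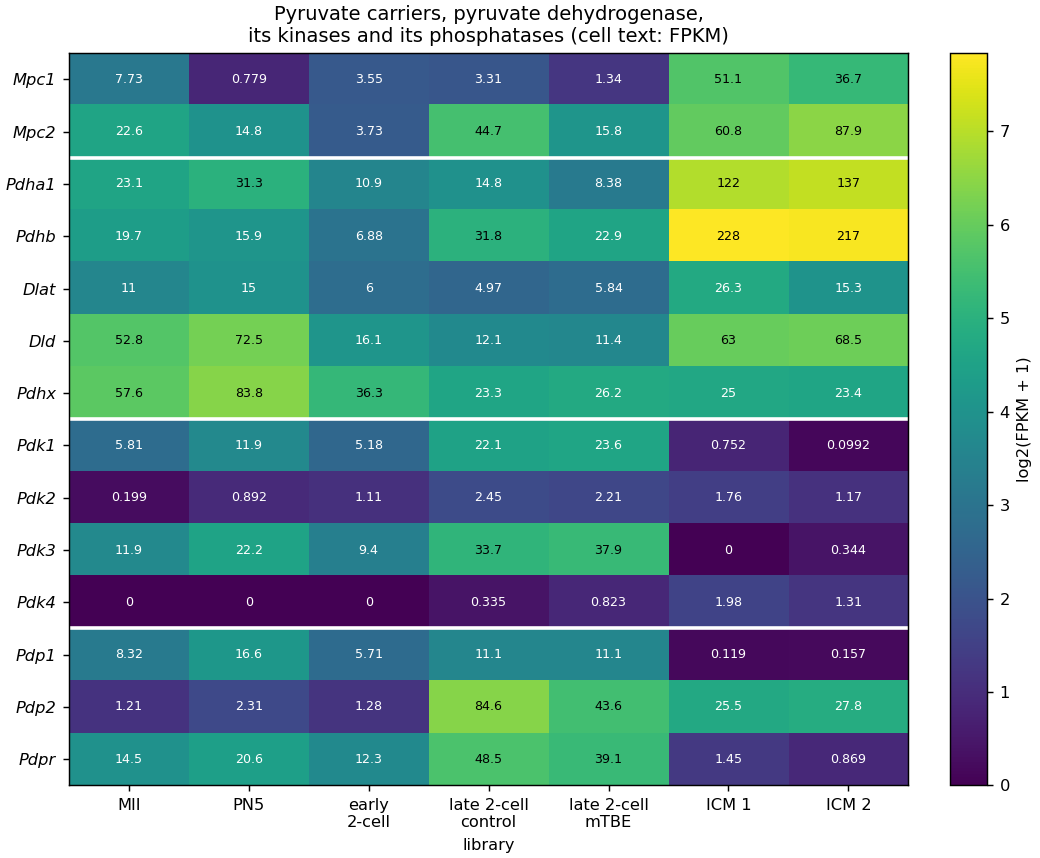
Level of 14 genes (rows) in the 7 libraries (columns), coloured by log2(FPKM + 1) with the FPKM written in each cell. White lines part mitochondrial pyruvate carriers, subunits of pyruvate dehydrogenase, its kinases and its phosphatases. In ICM Pdha1 and Pdhb are at 122 FPKM or more, while the kinase genes Pdk1 and Pdk3 and the phosphatase gene Pdp1 are below 1.

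The comparison of the late 2-cell control with PN5 asked what stood differently before and after genome activation, within 1 table. All 10 genes were measured: 5 were higher (30.5% of all 13022 genes measured) and 2 lower (17%). The 5 were Slc2a3, Hk1, Hk2 (1.14), Pfkl (1.15) and Slc16a1 (1.63), and the 2 were Ldhb and Pdha1. Slc2a3 and Hk1 were below 1 FPKM in PN5 and entered through the control alone. The median difference of the 10 was 0.99, and of all genes 0.28. Pdk1 (0.84), Slc2a1 (-0.07) and Pfkp (-0.09) were within the size rule, the last 2 turning to 0.06 and 0.02 with the median ratio of -0.13 set to 0. The control had DMSO and culture that PN5 does not have on record, so stage and handling cannot be told apart.

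The comparison of mTBE with control asked how embryos stood after a temporary block of transcription. Of the 10 genes 0 were higher (5.57% of all genes) and 1 was lower (9.99%), with a median of -0.35 against -0.05 over all genes. Slc2a3 and Slc16a1 lay just inside the size rule and Pfkl outside. They were followed by Pdha1 (-0.75), Hk1 (-0.44), Slc2a1 (-0.26) and Ldhb (-0.23), and on the other side by Pfkp (0.35), Hk2 (0.19) and Pdk1 (0.09). With a pseudocount of 0.1 FPKM 3 genes were lower, Slc2a3 at -1.05 and Slc16a1 at -1.02 being added to Pfkl. Against PN5, mTBE had 3 of the 10 higher (29.4% of all genes) and 2 lower (17.7%). The higher genes were Slc2a3, Hk1 and Hk2 (1.33), and Slc16a1 (0.64) and Pfkl (-0.13) were not among them. Slc2a3 and Hk1 were below 1 FPKM in PN5 and were measured through mTBE alone. These 3 comparisons share libraries, so their values are set side by side and are not independent.

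**Figure D4:**
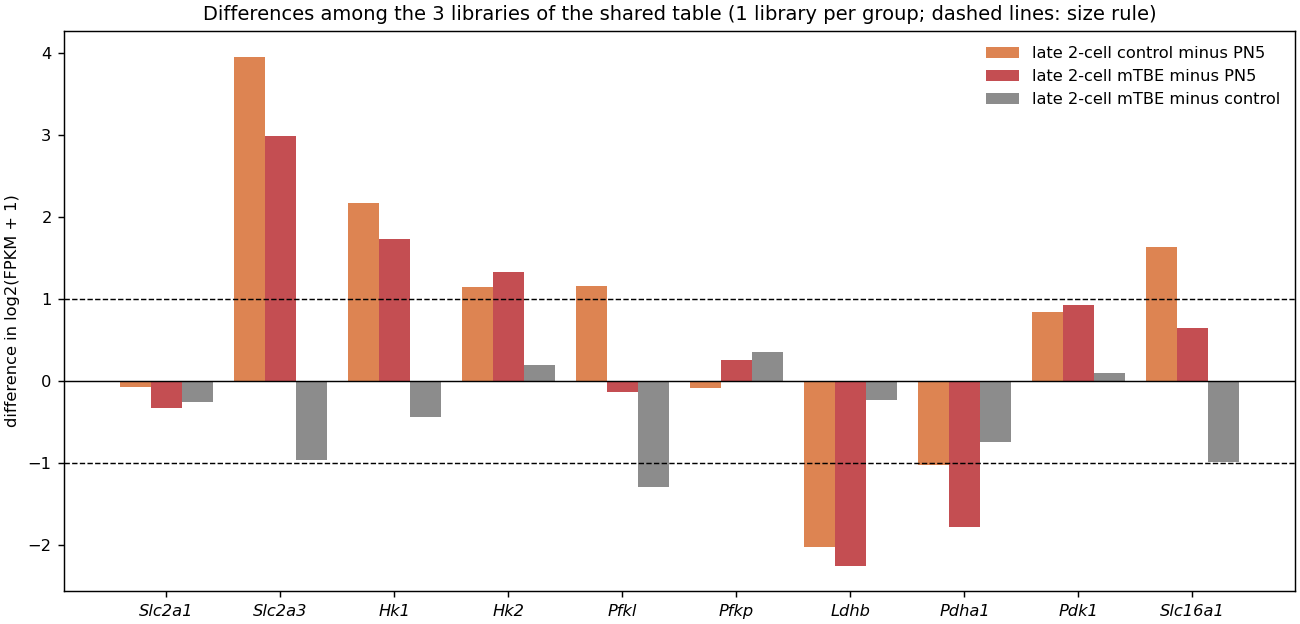
Difference in log2(FPKM + 1) (y axis) of the 10 genes (x axis) among PN5, late 2-cell control and late 2-cell mTBE, 1 library per group, so that bars carry no error. Dashed lines mark the size rule of 1. Slc2a3, Hk1 and Hk2 exceed it in both late 2-cell libraries against PN5, whereas Pfkl and Slc16a1 exceed it in the control alone.

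The steps around the early 2-cell stage set separate tables side by side. From MII to PN5, 8 of the 10 genes were measured, of which 0 were higher (8.77% of all genes) and 1, Ldhb at -1.03, was lower (9.23%). From MII to early 2-cell 0 of 8 were higher (3.98%) and 3 lower (28.8%), namely Ldhb (-1.17), Pdha1 (-1.02) and Slc16a1 (-1.32). Over genes of at least 5 FPKM in these libraries the log2 ratio had a median of -0.57, and with it set to 0 none of the 3 passed the size rule and Hk2 did, at 1.38. From PN5 to early 2-cell 0 of 8 were higher (6.75%) and 3 lower (39.2%), which became 1 and 0 with the median ratio of -0.865 set to 0. Between early 2-cell and the late 2-cell control 4 of 10 were higher (49.6%) and 1 lower (8.62%). Slc2a3 (4.08), Hk1 (1.96), Pdk1 (1.90) and Slc16a1 (2.94) were the higher genes and Ldhb (-1.88) the lower one. Slc2a3 and Hk1 were below 1 FPKM in early 2-cell and were measured through the control alone.

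The ends of the course were compared with both the stage and the library protocol differing. Of 9 genes measured between ICM and MII, 3 were higher (34.4% of all genes) and 2 lower (39.9%). Slc2a3 was higher by 5.84, Hk2 by 4.28 and Pdha1 by 2.44. Slc2a3 and Hk2 were below 1 FPKM in MII and were measured through ICM alone. Ldhb was lower by -9.12 and Pdk1 by -2.29, the latter measured through MII alone. Slc2a1 (0.06), Pfkl (0.22), Pfkp (-0.39) and Slc16a1 (0.45) were within the size rule, and Hk1 was below 1 FPKM on both sides. Between ICM and the late 2-cell control 3 of 10 were higher (25%) and 5 lower (47.8%), with a median of -0.71 against -0.88 over all genes. Pdha1 was higher by 3.05, and Pdk1 (-4.06), Pfkl (-1.10) and Slc16a1 (-1.18) were among the lower genes. Pdk1 and Hk1, which was also lower, were below 1 FPKM in ICM and were measured through the control alone. Without ICM replicate 2, Pfkl (-0.74) and Slc16a1 (-0.88) no longer counted as lower, which left 3. Stage, trophectoderm transcripts, protocol and table cannot be told apart in these comparisons.

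The wider pathway was followed in 9 lists that leave out the 10 genes. Their counts are to be read against the shares of all genes, which were 30.5% higher and 17% lower in the late 2-cell control against PN5, 25% and 47.8% in ICM against the control, and 5.57% and 9.99% in mTBE against control. Over the lists 30 of 100 measured genes were higher and 25 lower in the control against PN5, and 42 and 38 of 105 in ICM against the control. In mTBE against control 0 of 102 were higher and 10 lower, the latter near the share of all genes. Among the lower 10 were 2 of 14 glycolysis genes, 3 of 10 pentose phosphate genes and 2 of 19 TCA cycle genes.

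The TCA cycle list was on balance lower at the late 2-cell stage and higher in ICM. Of 20 genes measured, 3 were higher and 10 lower in the control against PN5 (median -1.19), and 17 higher and 0 lower in ICM against the control (median 2.71). The medians over all genes were 0.28 and -0.88. In early 2-cell against MII 0 of 19 were higher and 12 lower (3.98% and 28.8% of all genes), with medians of -1.11 and, over all genes, -0.58. In the control against early 2-cell 6 of 20 were higher and 2 lower (49.6% and 8.62%), with medians of 0.13 and 0.99. Both comparisons cross separate tables. Some genes of the list were measured through 1 side of a comparison alone. Idh2 and Idh3b were below 1 FPKM in early 2-cell, Idh2 also in PN5, and Suclg1 in the late 2-cell control. Idh2, Idh3b and Suclg1 were chosen after their values were seen. With the median ratio set to 0, 1597 of all genes in place of 3075 were lower in early 2-cell against MII. Cs, citrate synthase, was the exception in level, at 111 to 213 FPKM in all 7 libraries. Mdh2, mitochondrial malate dehydrogenase, was at 12.6 FPKM in PN5, 47.6 in the control, 11.0 in mTBE, and 412 and 558 in ICM. Idh3a, a subunit of NAD-dependent isocitrate dehydrogenase, was at 45.1 FPKM in PN5, 25.2 in the control, and 150 and 112 in ICM. Sucla2, a subunit of succinate-CoA ligase, was at 67.9 FPKM in PN5, 24.3 in the control, and 105 in both ICM libraries.

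In the glycolysis list 5 of 13 measured genes were higher and 2 lower in the control against PN5 (median 0.30, and 0.28 over all genes), and 8 of 16 were higher and 3 lower in ICM against the control (0.87 and -0.88). Pkm, the last enzyme of the pathway, was at 211 FPKM in MII, 109 in PN5, 78.9 in the control, 42.5 in mTBE, and 102 and 51.3 in ICM. Aldoa, aldolase A, was at 62.9 FPKM in MII, 35.3 in the control, and 576 and 416 in ICM. Tpi1, triose phosphate isomerase, was at 44.3, 18.4, and 152 and 108 FPKM in the same libraries. Values near 0 in some tables were also found in this list. Eno1 was at 24.1 and 13.7 FPKM in MII and early 2-cell, below 1 FPKM in PN5, both late 2-cell libraries and ICM replicate 2, and at 1.40 in ICM replicate 1. Gapdh was listed at 0 in PN5 and the control, against 7.12 FPKM in MII and 142 and 103 in ICM. Among the glycolysis genes higher in the control than in PN5, Aldoc, Eno3 and Pfkfb4 were below 1 FPKM in PN5. They were measured through the control alone. Among the glycolysis genes higher in ICM, Gapdh, Pgam1 and Pgam2 were below 1 FPKM in the control and were measured through ICM alone. Pgk1, also higher in ICM, was at 8.50 and 11.1 FPKM in MII and early 2-cell. In PN5, control and mTBE it was at 0.960, 1.42 and 0.855 FPKM. The part of such low values in the counts and medians of this list was not tested. Aldoc, Eno1, Eno3, Gapdh, Pfkfb4, Pgam1, Pgam2 and Pgk1 were chosen after their values were seen. Over all genes 54 were at 10 FPKM or more in MII and early 2-cell and below 1 in the 3 libraries of the shared table, and none of the 10 members was among them.

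**Figure D5:**
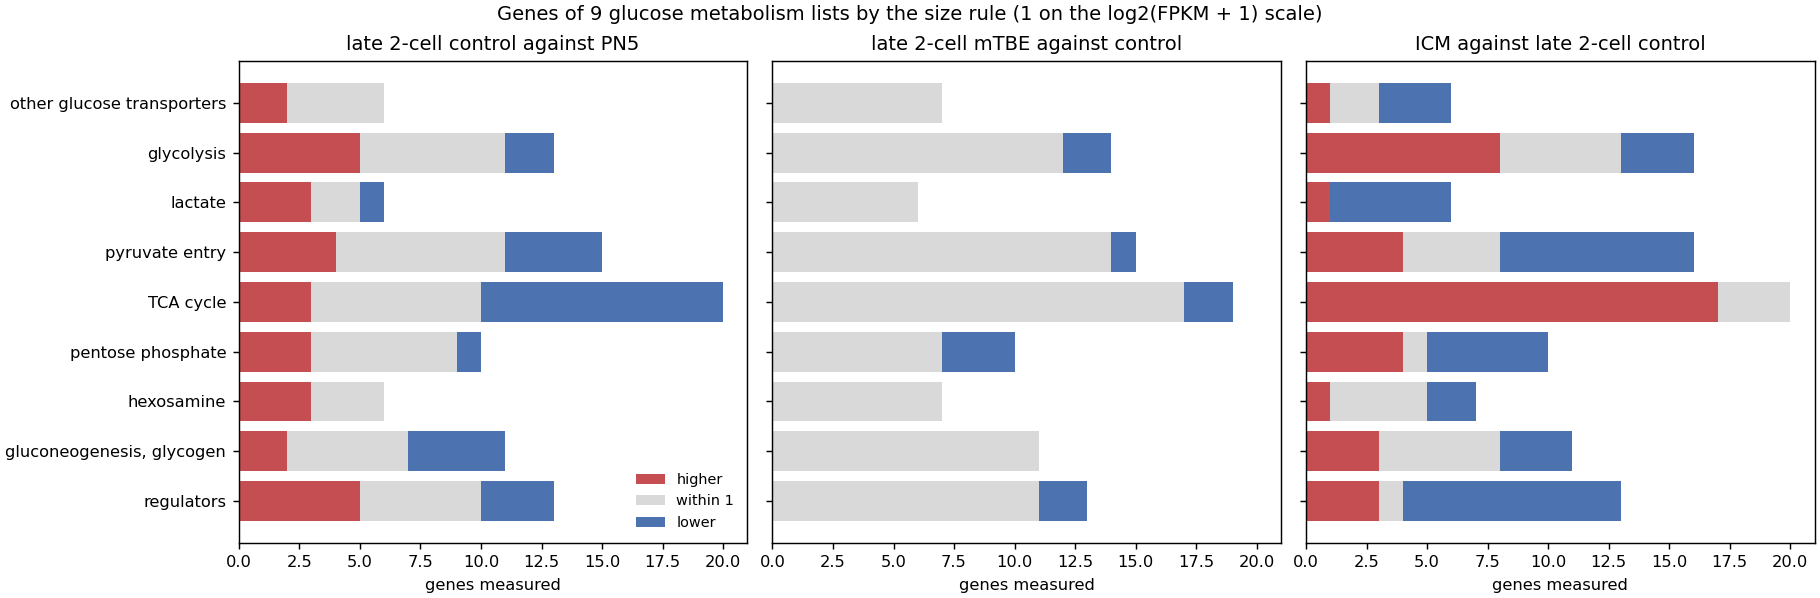
Number of measured genes (x axis) in 9 lists of glucose metabolism genes (y axis) that were higher (red), lower (blue) or within the size rule (grey) in 3 comparisons. The TCA cycle list has 10 of 20 genes lower in the late 2-cell control against PN5 and 17 of 20 higher in ICM against the control.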

How the data were processed

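RNA was measured in 7 libraries, and 109 further samples, of genomic DNA, were not used here. FPKM per gene symbol were deposited in 4 tables. Tools listed in the submitters' processing notes are TopHat2 2.1.1, Cufflinks 2.1.1 and CASAVA 1.8, with build mm9, and no tool is tied to a file. The handling of strand and of multi-mapped reads is not given in the sources used here. The MII column carries a name that a chromatin sample also bears, and was taken as RNA because its table is listed with the MII RNA sample. No value column lacked a sample (0 columns). Rows that share a symbol (up to 497 per table, none a member) were summed. Differences used log2(FPKM + 1), with a filter of 1 FPKM, in Python 3.11.15 with pandas 2.3.3. The size rule was run on simulated data only as a check of the code, with large changes in genes well above the filter. That run does not bear on low genes, separate tables or the spread between libraries. No p-value was possible with 1 library per group, and where the 2 ICM libraries were compared their spread may be technical. Read depth is unknown: among low values, 282 of 1972 genes in the ICM pair lay at 1 ratio, a relative depth of about 2.11 in favour of replicate 1, and the 2 pairs examined among PN5, control and mTBE showed no such step.

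Likeness was taken over the 7 libraries among genes that reached 5 FPKM in 1 or more of them. Genes named outside the 10 were the 4 highest of each list, paralogs of members and nearest profiles, unless said otherwise. One of the paralogs is not reported here. Members, lists and rules were chosen with earlier results of these data known, and the shares of isozyme sums were added after the values were seen. Promoter windows and overlapping genes came from RefSeq tables of GRCm38, which is not the authors' build. Alternatives were a pseudocount of 0.1, no filter or 5 FPKM, median scaling, rescaling to a sum of 1000000, the highest row per symbol, and leaving out each ICM replicate.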

Additional observations from a re-analysis of the deposited data

How the results depend on the processing

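No paired analysis was possible because each total RNA group has 1 library and replicate numbers are shared by name only. Of 573 recomputed differences of single genes among the 10, 544 kept their side of the size rule, 15 no longer passed it and 14 newly passed it. The sign changed in 28, all of them below the size rule under both settings. With median scaling the genes lower in the late 2-cell control against PN5 numbered 1 in place of 2. In mTBE against control 3 were lower in place of 1 with a pseudocount of 0.1 and with rescaling to a sum of 1000000. In PN5 against MII 2 were higher in place of 0 with a pseudocount of 0.1, Hk2 (1.28) and Pdk1 (1.03). In early 2-cell against MII 1 was higher in place of 0 with a pseudocount of 0.1, median scaling or rescaling, and 0 (median scaling) or 1 (rescaling) were lower in place of 3. In early 2-cell against PN5 1 was higher with median scaling, Pfkl at 1.00, and 0 were lower in place of 3 with either scaling. In ICM against the late 2-cell control, leaving out 1 ICM replicate gave 3 to 5 lower genes, and 3 higher. Between the ICM replicates 0 were higher with a filter of 5 FPKM, and 0 (median scaling) or 2 (rescaling) were lower in place of 1. Beyond what these settings do by construction, the cause was not tested. Of 128 recomputed counts over the other lists 103 stayed within 1.5 times.

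Counts over all genes moved by more than 1.5 times as follows. A filter of 5 FPKM gave 2331 higher in place of 3970 for control against PN5, 245 in place of 765 for mTBE against control, 1818 in place of 3963 for mTBE against PN5, 173 in place of 425 for early 2-cell against MII, 333 in place of 732 for early 2-cell against PN5, and 126 higher and 181 lower in place of 231 and 279 for the ICM pair. A pseudocount of 0.1 gave 1432 higher for mTBE against control, and 395 higher and 688 lower for the ICM pair. Median scaling gave 345 higher in place of 939 for PN5 against MII (20.9% of calls higher in place of 48.7%), 913 higher and 1597 lower in place of 425 and 3075 for early 2-cell against MII (36.4% in place of 12.1%), 1548 and 1730 in place of 732 and 4243 for early 2-cell against PN5 (47.2% in place of 14.7%), and 1817 lower in place of 1132 for late against early 2-cell (70.6% in place of 85.2%). Rescaling gave 1859 and 2106 for mTBE against control (46.9% in place of 35.8%, and 18.4% with a filter of 5 FPKM), 1870 lower for PN5 against MII, 2038 higher for early 2-cell against MII, 2815 and 2644 for early 2-cell against PN5, 3073 lower for late against early 2-cell, and 367 and 699 for the ICM pair (62.2% higher with median scaling, in place of 45.3%). Differences that cross the early 2-cell table therefore depend on how tables are put on 1 scale.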

Other observations

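Branches that leave glycolysis differed from egg to ICM. G6pdx, the entry enzyme of the pentose phosphate pathway, was at 206 FPKM in MII, 251 in PN5, 123 in the late 2-cell control, 121 in mTBE, and 14.1 and 11.1 in ICM. Pgd, which acts 2 steps later, was at 11.4 FPKM in MII, 43.1 in the control, 13.6 in mTBE, and 119 and 93.4 in ICM. In the hexosamine pathway, which makes the sugar for O-GlcNAc, Uap1 was at 7.01 FPKM in PN5, 43.1 in the control, 24.4 in mTBE, and 26.4 and 31.7 in ICM, and 3 of 6 measured genes of its list were higher and 0 lower in the control against PN5 (30.5% and 17% of all genes). Pgm3, among those higher genes, was below 1 FPKM in PN5 and was measured through the control alone. It was chosen after its values were seen. Gyg, glycogenin, was at 388 FPKM in MII, 106 in the control, and 9.63 and 7.48 in ICM. Fbp2, the muscle-type fructose bisphosphatase, was at 11.1 FPKM in MII, 1.16 in the control, 0.687 in mTBE, and 456 and 581 in ICM, while Fbp1 was at 26.4, 2.64, 5.87, and 7.93 and 7.84 in the same libraries.

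Among regulators, Txnip, which encodes an inhibitor of glucose uptake, was at 456 FPKM in MII, 478 in PN5, 48.7 in early 2-cell, 33.2 in the late 2-cell control, 36.7 in mTBE, and 3.67 and 1.48 in ICM. Hif1a, the hypoxia-inducible factor subunit, was at 69.9 FPKM in MII, 107 in PN5, 16.5 in early 2-cell, 42.1 in the control, 43.6 in mTBE, and 14.4 and 7.39 in ICM. Its partner Arnt was at 13.2 to 38.1 FPKM in the total RNA libraries and 10.2 and 10.0 in ICM. The ICM values carry the same limits of protocol, table and trophectoderm transcripts as those of the 10 genes.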
